A study of Mus musculus with 18 samples.

Results

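Testes from busulfan treated mice that were cultured with AOS at 10 μg/mL (BA10) were compared with testes of the same kind cultured without AOS (B0). Both groups had 3 samples, which were 6 of the 18 samples in the series, and the 6 were chosen by their labels alone. Of the 22657 genes in the deposited table, 14705 had at least 1 FPKM in 3 or more of these 6 samples and were tested. In both groups ICR male mice had received busulfan at 40 μg per g body weight when they were 3 weeks old, and their testes were removed 2 weeks later and kept for 48 h in DMEM/F12 medium with fetal bovine serum. The only labelled difference between B0 and BA10 was the AOS in the medium. Age-matched testes without busulfan made up A0, A10 and A50 (0, 10 and 50 μg/mL AOS), and BA50 was busulfan treated testis with 50 μg/mL AOS. The AOS doses are given per mL of medium in the labels and per kg body weight in the design text of the series, and the unit of the labels is used here. The sources do not say which of the repeated cultures a sample came from or whether testes were pooled, so the p-values measure the spread between these samples, which may be technical in part.

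AOS, alginate oligosaccharides, are fragments of alginate, the wall polysaccharide of brown seaweed. Busulfan is an alkylating drug that kills dividing spermatogonia, so that the later germ cells, the spermatocytes and spermatids, are lost in the order in which they would have formed. Spermatids pack their DNA first with transition proteins and then with protamines, while Sertoli cells, Leydig cells, peritubular myoid cells, vessels and macrophages make up the somatic part of the testis. A testis that is dissected out can also carry pieces of its neighbours, the epididymis, the fat pad and the outer epithelium.

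FPKM is the number of sequenced fragments of a gene relative to its transcript length and to all mapped fragments, and its sum over all genes was between 469986 and 507867 in the 6 samples. Between 14483 and 14745 genes had at least 1 FPKM in each of them. Pearson's r across genes on the log2(FPKM + 1) scale was 0.965 to 0.972 between B0 samples and 0.960 to 0.984 between BA10 samples, and genes are not independent replicates. BA10 replicate 2 had the lowest values of r with the others, down to 0.934 with B0 replicate 1. Genes that mark cells of the testis were expressed in all 6 samples. Examples were Sox9 of Sertoli cells (13.76 to 21.09 FPKM), Star of Leydig cells (236.64 to 492.35 FPKM) and Prm1 of spermatids (621.92 to 1807.01 FPKM). The number of reads is unknown, so no counting interval is given.

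In limma's fit of log2(FPKM + 1), 4 genes passed an adjusted p of 0.05 (Benjamini-Hochberg over the 14705 genes), and all of them were lower in BA10. They were the keratins Krt7, Krt8 and Krt18 and the carbonic anhydrase Car3. The share of genes called was 0.0272% for lower and 0.0% for higher in BA10, with 0 genes called higher and a smallest adjusted p of 0.146 among genes with a higher mean (Abhd2, a lipid hydrolase named here after its values were seen). At an unadjusted p under 0.05, 279 genes (1.9% of those tested) were higher and 457 (3.11%) were lower. The 3 values of BA10 lay above all 3 values of B0 in 520 genes (3.54%) and below them in 1120 genes (7.62%). The median log2 change over all genes tested was -0.03, and 55.9% of them had a lower mean in BA10. At the limits in the study's methods (adjusted p of at most 0.001, log2 change of 1 or more either way) the limma fit called 0 genes. The study set these limits for another test, DEGseq, which was not run here, so this count is not the outcome of that test.

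The calls rested on the spread shared by all 18 samples. A fit of the 6 samples alone called 0 genes, with a smallest adjusted p of 0.479, and an exact two-sided permutation test over the 20 ways of dividing 6 samples cannot give a p below 0.1, which was its value for each of the 4 genes. Without BA10 replicate 1 the shared fit called 0 genes, without BA10 replicate 2 it called 2 and without BA10 replicate 3 it called 1. Without B0 replicate 1, 2 or 3 it called 8, 16 and 6 genes, all of them lower in BA10.

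Keratins are the filament proteins of epithelial cells, and Krt8 and Krt18 pair with each other in simple epithelia such as ducts. Krt7 (chr15:101412403-101427806, GRCm38, protein coding) was at 10.54, 25.28 and 6.88 FPKM in the B0 samples and at 0.10, 0.20 and 1.18 FPKM in the BA10 samples. Its log2 change was -3.23 ± 0.38 (SE) with an adjusted p of 0.00786 (limma). The groups did not overlap, and the lowest B0 value was more than 5 FPKM above the highest BA10 value. Krt8 (chr15:101996711-102004342) was at 22.03, 58.87 and 20.65 FPKM in B0 and at 2.73, 4.62 and 4.12 FPKM in BA10, a log2 change of -2.71 ± 0.37 (adjusted p = 0.0174, limma). Krt18 (chr15:102028216-102032026) was at 25.29, 69.21 and 29.56 FPKM in B0 and at 2.55, 7.21 and 4.59 FPKM in BA10, a log2 change of -2.81 ± 0.39 (adjusted p = 0.0174, limma). B0 replicate 2 was the highest sample for each of these keratins. In bulk tissue, fewer cells of a type and less RNA per cell cannot be told apart, and this holds for each gene group below.

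The 3 keratin genes lie on chromosome 15, and the 150 bases before their annotated starts are shown because the genes fell together. The windows are those of RefSeq on GRCm38.p6, at chr15:101412253-101412402 on the plus strand for Krt7, chr15:102004343-102004492 on the minus strand for Krt8 and chr15:102028066-102028215 on the plus strand for Krt18, each written 5′ to 3′ on the gene's strand. Capitals mark the letters GGGCGG of a GC box on either strand.
Krt7: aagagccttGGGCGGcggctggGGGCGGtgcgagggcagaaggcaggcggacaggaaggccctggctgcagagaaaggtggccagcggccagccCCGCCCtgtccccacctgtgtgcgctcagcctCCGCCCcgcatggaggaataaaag
Krt8: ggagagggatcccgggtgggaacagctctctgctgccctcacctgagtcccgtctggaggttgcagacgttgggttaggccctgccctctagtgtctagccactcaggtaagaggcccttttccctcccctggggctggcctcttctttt
Krt18: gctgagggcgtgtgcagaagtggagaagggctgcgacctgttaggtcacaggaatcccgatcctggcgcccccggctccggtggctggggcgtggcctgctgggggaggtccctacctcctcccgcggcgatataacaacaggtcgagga

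The Krt7 window held 4 GC boxes, which began 141, 128, 56 and 24 bases before the start, and the Krt8 and Krt18 windows held 0. Of 32851 windows of the same length, 28.6% held at least 1. The letters TATAAA (7.57% of windows), TGANTCA of an AP-1 site (4.24%) and TGACGTCA of a cAMP response element (1.36%) were not in any of these 3 windows. These motifs did not overlap each other, and a match or its absence is a description of the letters in this window.

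**Figure D1:**
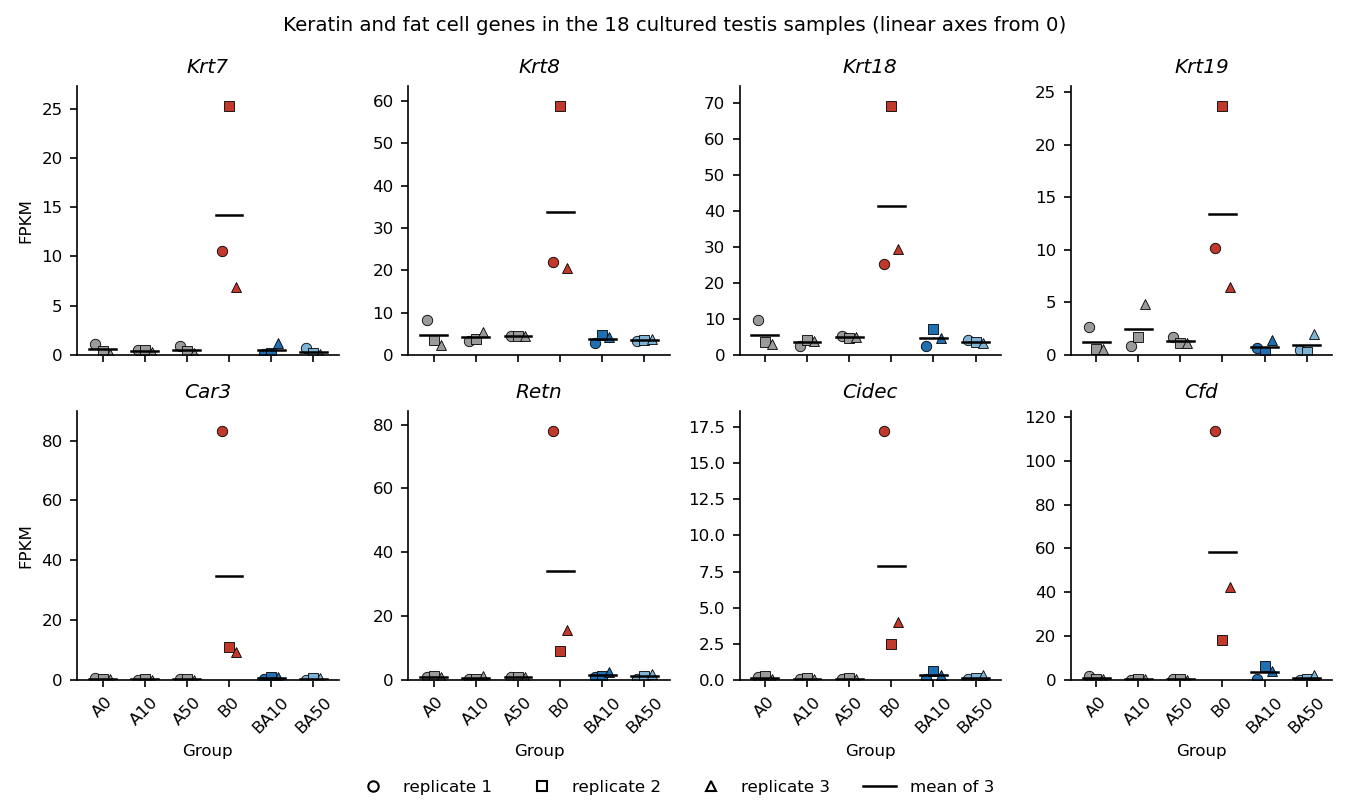
FPKM (linear axes from 0) of 4 keratin genes and 4 fat cell genes in the 18 samples, by group (x axis); each point is a sample, its shape is the replicate number and the bar is the mean of 3. For these 8 genes the 3 B0 samples lie above all samples of the other 5 groups, with B0 replicate 2 highest for the keratins and B0 replicate 1 highest for the fat cell genes.

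Of the other genes of simple epithelium most had lower means in BA10, and 0 of them passed adjustment. Of the 21 genes on the list, 16 were tested, 3 were called lower (Krt7, Krt8 and Krt18), 9 were lower at an unadjusted p under 0.05 and 8 had values that did not overlap, with 0 higher by any of these counts. Lower genes made up 0.0272%, 3.11% and 7.62% of all genes tested by the same counts. The list had a median log2 change of -0.79, against -0.03 over all genes tested. Krt19, another keratin of ducts, was at 10.20, 23.69 and 6.46 FPKM in B0 and at 0.65, 0.23 and 1.44 FPKM in BA10, with a log2 change of -2.90 ± 0.50 that missed the limit after adjustment (adjusted p = 0.0897, limma). Members outside the naming rule are given after their values were seen. Cldn7, a tight junction claudin, had a log2 change of -1.83 ± 0.34 (adjusted p = 0.0963, limma). Elf3, a transcription factor of epithelia, had one of -1.20 ± 0.21 (adjusted p = 0.0912, limma). These genes entered the test through B0 alone, with BA10 values from 0.22 to 0.81 FPKM, as did Cidec, Crisp1, Car4, Hmga1b and Hspa1a below. Such genes could hardly be other than lower in BA10. Counts by direction, list medians and the largest falls thus depend in part on the filter. Krt7, Krt19 and Car3 had a single BA10 value of at least 1 FPKM each, and their B0 values alone met the limit.  Wfdc2, a secreted protein made by duct epithelium, was at 7.14, 47.39 and 26.54 FPKM in B0 and at 2.08, 3.66 and 2.46 FPKM in BA10. Cdh1, the E-cadherin that joins epithelial cells, was at 2.04, 12.62 and 4.93 FPKM in B0 and at 0.83, 1.98 and 0.97 FPKM in BA10. Both were below their B0 values in all 3 BA10 samples. Not every member followed: Epcam had a log2 change of -0.36 ± 0.25, Cldn3 of -0.09 ± 0.29 and Prom1 of 0.29 ± 0.28, none of them at an unadjusted p under 0.05. Among the members too low to be tested, Pax8, Spint1, Esrp1 and Ehf reached at least 1.52 FPKM in B0 replicate 2 and no more than 0.77 FPKM in any BA10 sample. Leaving out B0 replicate 2, the sample with the highest keratin values, gave a median of -0.69 for the tested members, with 8 of 16 lower at an unadjusted p under 0.05.

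Genes of fat cells had the lowest median of the 33 lists. Car3 (chr3:14863538-14872381, protein coding), a carbonic anhydrase that is abundant in fat and muscle, was at 83.24, 11.12 and 9.25 FPKM in B0 and at 0.17, 1.06 and 0.81 FPKM in BA10. Its log2 change was -3.74 ± 0.55 (adjusted p = 0.0232, limma). The groups did not overlap, although B0 replicate 1 was far above the other B0 samples. Without that sample the log2 change of Car3 was -2.77 with an adjusted p of 0.000168 (limma), and without BA10 replicate 1, 2 or 3 it was not called, with adjusted p-values of 0.231, 0.0858 and 0.126 (limma). A pseudocount of 0.1 gave an adjusted p of 0.0554 (limma), and leaving out A10 replicate 3 gave 0.053.

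Of the 20 fat cell genes 16 were tested, 10 were lower at an unadjusted p under 0.05 and 7 had values that did not overlap, with 0 higher by either count and a median log2 change of -0.91. Lower genes made up 3.11% and 7.62% of all genes tested by these counts. Cfd, the secreted protease adipsin, was at 113.68, 18.21 and 42.54 FPKM in B0 and at 0.22, 6.18 and 3.93 FPKM in BA10, a log2 change of -3.71 ± 0.66 (adjusted p = 0.0912, limma). Retn, the adipocyte hormone resistin, was at 78.07, 8.99 and 15.64 FPKM in B0 and at 0.91, 1.30 and 2.42 FPKM in BA10, a log2 change of -3.26 ± 0.53 (adjusted p = 0.0654, limma). Cidec, a protein of the fat droplet surface, was at 17.25, 2.47 and 3.98 FPKM in B0 and at 0.02, 0.60 and 0.32 FPKM in BA10, a log2 change of -2.40 ± 0.41 (adjusted p = 0.0897, limma). The groups did not overlap for any of them, with B0 replicate 1 highest throughout. Named after their values were seen, the fatty acid carrier Fabp4 was at 567.16, 158.61 and 199.98 FPKM in B0 and at 62.16, 106.35 and 82.48 FPKM in BA10. The lipases Lipe (log2 change 0.27 ± 0.27) and Pnpla2 (0.00 ± 0.16) on the same list did not follow. Summed over the list, fat cell genes held 1200, 422 and 494 FPKM in the B0 samples and 279, 377 and 290 FPKM in the BA10 samples. The median of the list was -0.43 without B0 replicate 1 and -0.76 to -1.16 without any other sample.

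Genes of other tissues that border or supply the testis were mostly too low to be tested. Of the 10 mesothelium genes 5 were tested, and all 5 had a lower mean, with a median log2 change of -0.64. At an unadjusted p under 0.05, 2 of them were lower, and 2 had values that did not overlap. Over all genes tested 3.11% were lower at that p and 7.62% did not overlap with BA10 lower. Outside mesothelium the tested genes differed in direction. Msln, the surface protein mesothelin, was at 6.56, 2.44 and 3.65 FPKM in B0 and at 0.10, 0.92 and 1.97 FPKM in BA10 (log2 change -1.42 ± 0.43, adjusted p = 0.742, limma). The groups did not overlap for Msln. Crisp1, a secreted protein of the epididymal duct, was at 1.83, 37.37 and 2.80 FPKM in B0 and at 0.05, 0.24 and 0.00 FPKM in BA10 (log2 change -2.77 ± 0.63, adjusted p = 0.338, limma). B0 replicate 2, the sample with the highest keratin values, held nearly all of it. The other tested epididymis genes did not follow: Cst8, a cystatin, was at 31.38, 43.44 and 45.01 FPKM in B0 and at 58.38, 74.59 and 42.87 FPKM in BA10 (log2 change 0.52 ± 0.26), and Spink8, a protease inhibitor, was at 4.46, 31.07 and 34.38 FPKM in B0 and at 14.16, 20.10 and 3.80 FPKM in BA10 (log2 change -0.67 ± 0.72). Both overlapped between the groups. Cst8 was highest in BA10 replicate 2, the sample with the highest spermatid values. Which cells its RNA came from was not tested. Of the other epididymis genes, 10 were below 1 FPKM in all 6 samples, Crisp4 was listed at 0 in each of them, and 3 genes in all were tested. The hemoglobin gene Hba-a1 was at 39.68, 24.61 and 18.97 FPKM in B0 and at 18.08, 15.57 and 10.00 FPKM in BA10 (adjusted p = 0.742, limma), and these groups did not overlap. Hbb-bs, a beta-globin gene, was at 12.38, 2.21 and 0.52 FPKM in B0 and at 0.00, 0.18 and 2.82 FPKM in BA10, which overlapped, and Alas2, an enzyme of heme synthesis, had a log2 change of 0.03 ± 0.22. Of the skeletal muscle genes only Mylpf was tested (log2 change -0.10 ± 0.12), and 11 of 13 were below 1 FPKM in all 6 samples. The mean level of the fat cell list was 3.48 to 4.90 in the B0 samples and 2.49 to 3.07 in the BA10 samples on the log2(FPKM + 1) scale, and that of the simple epithelium list was 3.85 to 4.86 and 2.91 to 3.13. These levels move with the same group as the called genes, and the part of neighbouring tissue in the results was not tested.

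**Figure D2:**
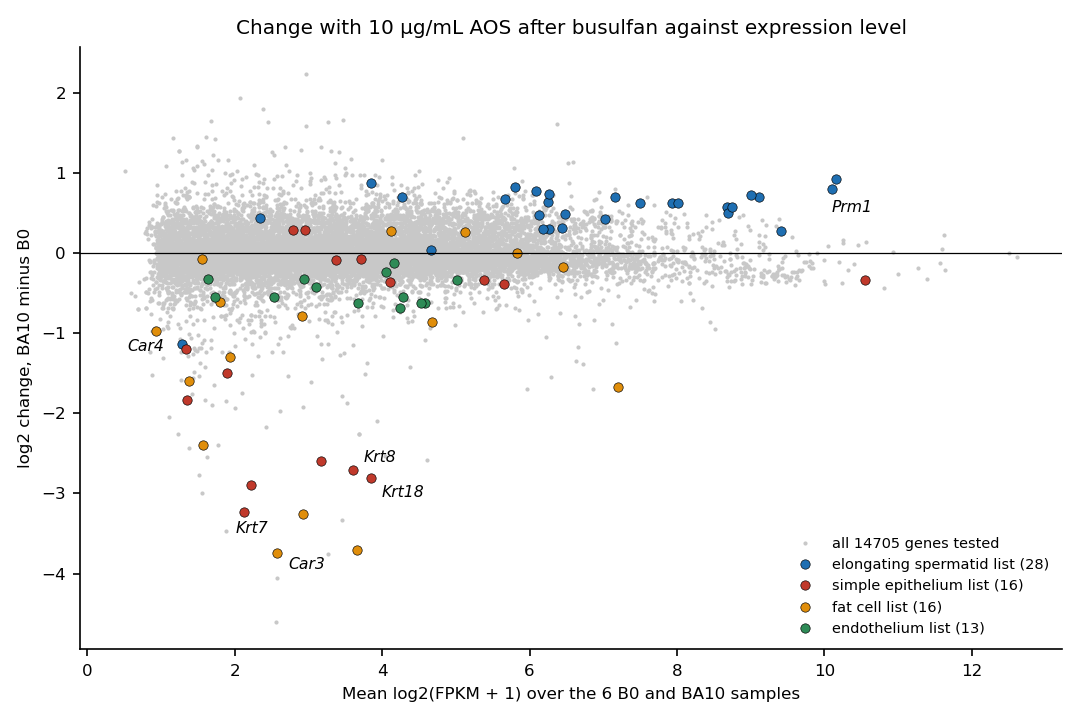
Log2 change of each of the 14705 genes tested (y axis, BA10 minus B0) against its mean log2(FPKM + 1) over the 6 samples (x axis); colored points are the tested members of 4 lists. Epithelium and fat cell genes reach well below the cloud, with the 4 called genes between -2.71 and -3.74, while 27 of 28 elongating spermatid genes lie above 0 and Car4 lies at -1.14.

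Most genes of elongating spermatids had a higher mean in BA10 than in B0, without any of them passing adjustment. The mean level of the list was 6.43, 6.71 and 6.39 in the B0 samples and 6.90, 7.55 and 6.63 in the BA10 samples on the log2(FPKM + 1) scale, so BA10 replicate 3 lay below B0 replicate 2 and the groups overlapped. All 28 genes of the list were tested, 27 had a higher mean, the median log2 change was 0.62 and 12 had BA10 values above all B0 values. At an unadjusted p under 0.05, 5 were higher and 1 was lower. Over all genes tested 3.54% had BA10 values above all B0 values, and 1.9% were higher and 3.11% lower at that p. Prm1, a protamine that packs sperm DNA, was at 621.92, 1019.91 and 910.63 FPKM in B0 and at 1417.70, 1807.01 and 1180.77 FPKM in BA10, a log2 change of 0.80 ± 0.33 (adjusted p = 0.742, limma). Prm2, the other protamine, was at 655.09, 1039.21 and 848.09 FPKM in B0 and at 1485.70, 2396.78 and 1090.31 FPKM in BA10, a log2 change of 0.92 ± 0.38 (adjusted p = 0.742, limma). All 3 BA10 samples lay above all 3 B0 samples for both protamines, with BA10 replicate 2 the highest. The transition protein genes had smaller differences, with log2 changes of 0.70 ± 0.33 for Tnp1 and 0.73 ± 0.31 for Tnp2. Tnp1 was at 335.86, 481.25 and 502.89 FPKM in B0 and at 726.56, 837.18 and 572.77 FPKM in BA10. Tnp2 was at 320.78, 436.15 and 445.66 FPKM in B0 and at 642.22, 782.47 and 569.49 FPKM in BA10. Odf1, an outer dense fiber protein of the sperm tail, was at 199.97, 235.05 and 189.87 FPKM in B0 and at 285.00, 476.91 and 241.43 FPKM in BA10 (log2 change 0.62 ± 0.32). The groups did not overlap for any of these tail and chromatin genes, and none passed adjustment. Car4, a carbonic anhydrase anchored to membranes, was the listed gene with a lower mean. It was at 3.84, 1.31 and 3.22 FPKM in B0 and 0.41, 0.70 and 0.83 FPKM in BA10 (log2 change -1.14 ± 0.24, adjusted p = 0.199, limma). In A0, without busulfan, it was at 0.55, 0.74 and 0.28 FPKM, and which cells its RNA came from was not tested.

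The size of the spermatid difference depended on which samples were used. Without BA10 replicate 2 the median of the elongating spermatid list was 0.28, with 26 of 28 members still higher and 0 at an unadjusted p under 0.05. Without BA10 replicate 3 the median was 0.82 and 18 members were higher at that limit. Without B0 replicate 1, 2 or 3 there were 0, 8 and 3 such members, and without BA10 replicate 1 there was 1. Over all genes tested, 0.483% were higher at that limit without BA10 replicate 2 and 3.99% without BA10 replicate 3.

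Round spermatid genes differed less. All 23 were tested and had a higher mean in BA10, with a median log2 change of 0.38. Of them 4 did not overlap, against 3.54% of all genes tested, and 1 was higher at an unadjusted p under 0.05, against 1.9%. That gene was Cst13, a testicular cystatin, which was at 7.57, 10.23 and 13.74 FPKM in B0 and at 20.73, 29.12 and 14.53 FPKM in BA10 (log2 change 0.95 ± 0.36, adjusted p = 0.742, limma). Tssk2, Tssk3 and Tssk6, testis-specific serine kinases of spermatids, had log2 changes of 0.56 ± 0.32, 0.64 ± 0.32 and 0.65 ± 0.34, and their groups did not overlap. Tssk2 was at 68.03, 69.59 and 58.06 FPKM in B0 and at 82.41, 150.94 and 71.37 FPKM in BA10, so that BA10 replicate 2 held most of the difference. Without BA10 replicate 2 the median of the list was 0.10, and 19 of 23 members were higher.

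**Figure D3:**
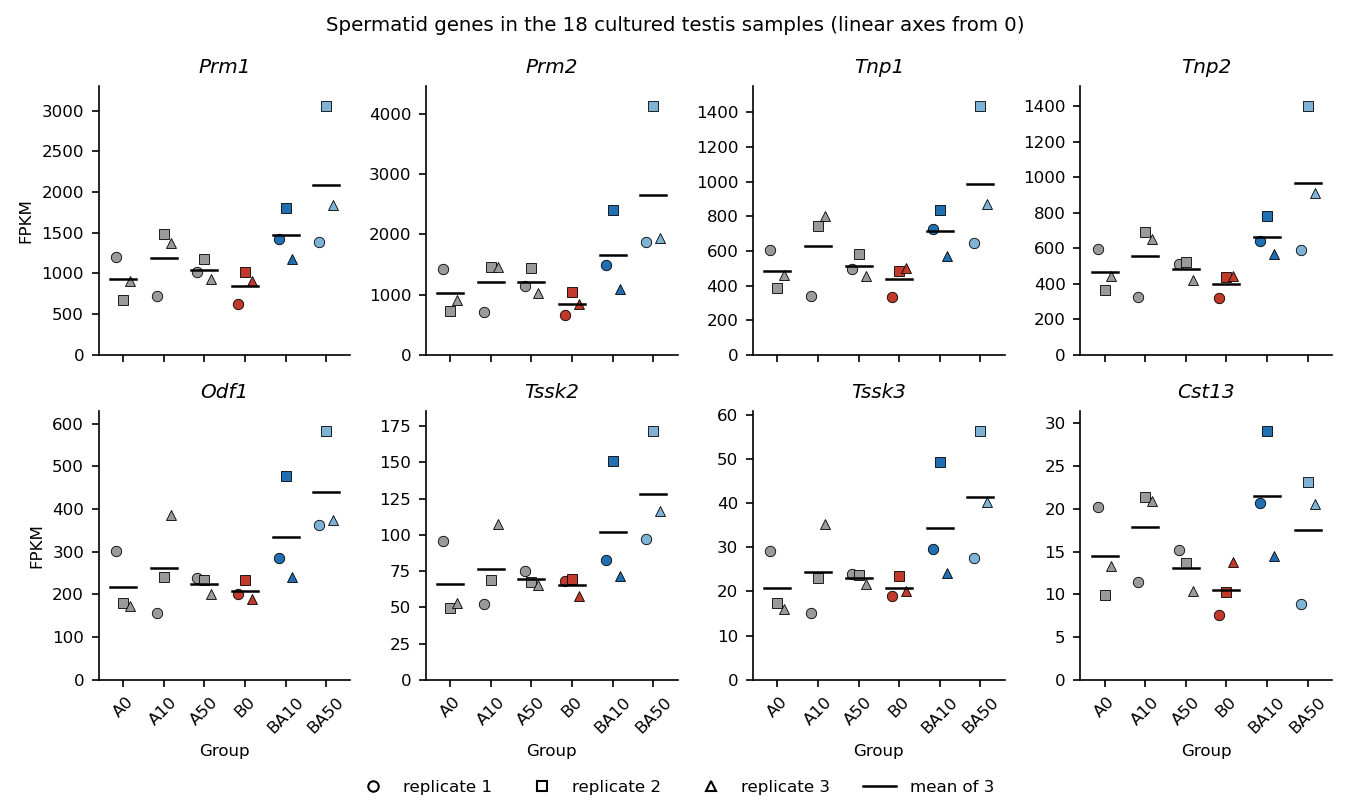
FPKM (linear axes from 0) of 8 spermatid genes in the 18 samples, by group (x axis); each point is a sample, its shape is the replicate number and the bar is the mean of 3. The 3 BA10 samples lie above the 3 B0 samples for each gene, BA10 replicate 2 is the highest BA10 sample for each, and for Prm1 the A0 and A10 samples, from 679.41 to 1489.60 FPKM, overlap the ranges of both groups.

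Genes of spermatocytes, which are earlier germ cells, had smaller median changes than elongating spermatid genes. All 17 late spermatocyte genes tested had a higher mean in BA10 (median log2 change 0.42), but 0 of them had values that did not overlap. Ccna1, the cyclin A of meiotic cells, was at 16.31, 21.82 and 12.07 FPKM in B0 and at 21.10, 31.11 and 27.87 FPKM in BA10 (log2 change 0.66 ± 0.28, adjusted p = 0.742, limma), and it was the only member at an unadjusted p under 0.05. Hspa2, the chaperone of pachytene spermatocytes, had a log2 change of 0.42 ± 0.24. Of 20 meiotic prophase genes tested, 16 had a higher mean with a median of 0.21, and 0 reached an unadjusted p under 0.05. Sycp3, a protein of the synaptonemal complex that holds paired chromosomes, was at 9.19, 13.35 and 9.86 FPKM in B0 and at 12.69, 14.82 and 11.26 FPKM in BA10 (log2 change 0.25 ± 0.17), while its partner Sycp1 had a log2 change of 0.43 ± 0.33. The ranges of B0 and BA10 overlapped for both. The cohesin gene Stag3 had a log2 change of 0.45 ± 0.22 and Smc1b of 0.60 ± 0.33. Spo11, the enzyme that cuts DNA to start recombination, was too low to be tested, between 0.24 and 1.30 FPKM. Without B0 replicate 3, which had the lowest spermatocyte values, the medians were 0.19 for late spermatocyte and 0.10 for meiotic prophase genes, and without B0 replicate 2 they were 0.61 and 0.33.

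Spermatogonial genes showed no call and no shared direction. Of the 18 genes of undifferentiated spermatogonia 8 were tested, 3 had a higher mean, and 9 were below 1 FPKM in all 6 samples. Id4, a marker of spermatogonial stem cells, was at 3.56, 3.58 and 4.83 FPKM in B0 and at 3.34, 3.16 and 3.40 FPKM in BA10 (log2 change -0.21 ± 0.12, adjusted p = 0.742, limma). Bcl6b, a target of the stem cell factor GDNF, had a log2 change of -0.39 ± 0.16 and was the only member at an unadjusted p under 0.05. The BA10 values of both lay below all B0 values. Of 7 tested genes of differentiating spermatogonia and meiotic entry, 5 had a higher mean (median 0.32), and the median was 0.13 without B0 replicate 3 and 0.17 without BA10 replicate 2. Dazl, an RNA-binding protein of germ cells, was at 3.68, 6.42 and 4.0 FPKM in B0 and at 4.13, 6.82 and 3.84 FPKM in BA10 (log2 change 0.05 ± 0.34). Ddx4, the RNA helicase found in most germ cells, had a log2 change of 0.40 ± 0.24, and Rec8, a meiotic cohesin, of 0.45 ± 0.28. Tex14, which keeps the bridges between germ cells open, had a log2 change of 0.32 ± 0.15 and was the only gene of the 7 at an unadjusted p under 0.05. Stk31 stayed below the limit for testing, with 0.49 to 0.93 FPKM in B0 and 0.81 to 1.19 FPKM in BA10.

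**Figure D4:**
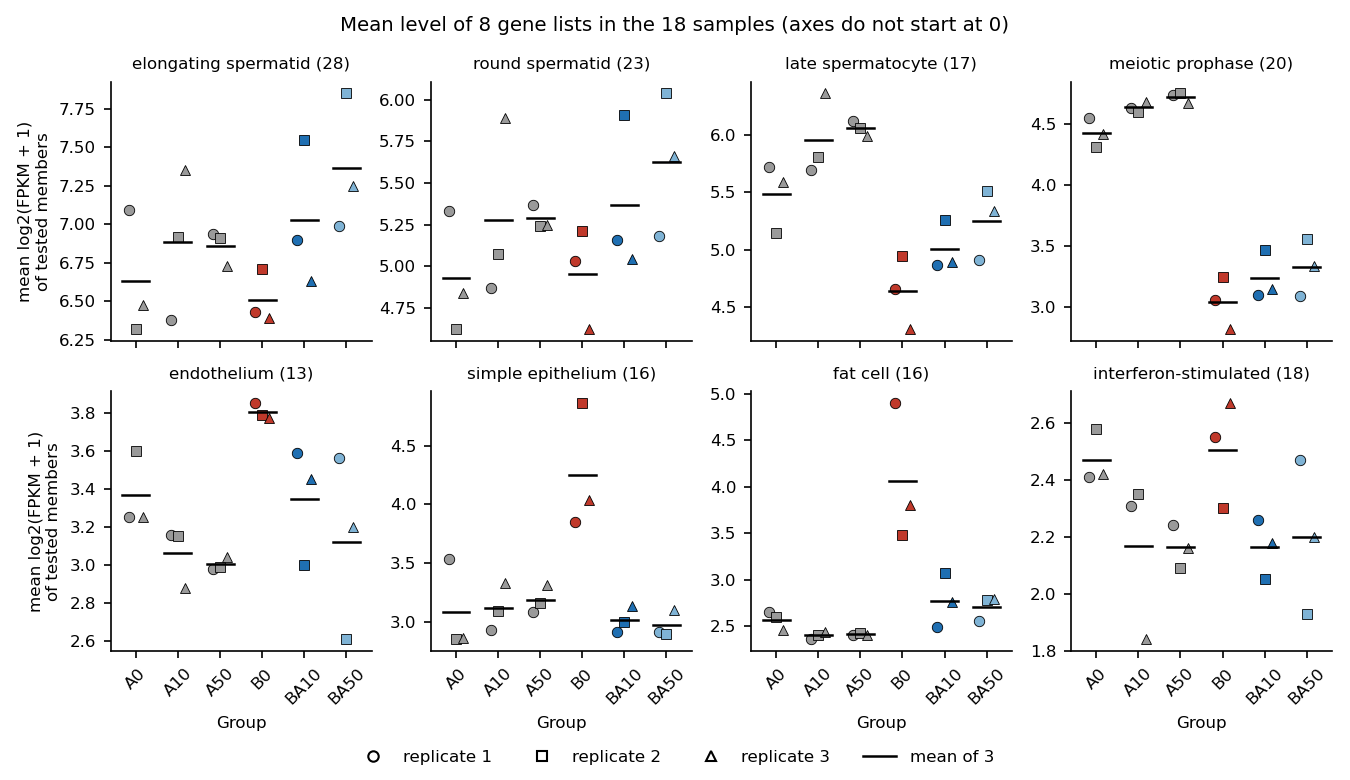
Mean log2(FPKM + 1) over the tested members of 8 gene lists (number of members in brackets) in the 18 samples, by group; point shapes are replicate numbers, bars are means of 3, and the axes do not start at 0. For the fat cell list the B0 samples lie at 3.48 to 4.90 and the BA10 samples at 2.49 to 3.07, while for the meiotic prophase list both groups lie between 2.82 and 3.47, under the 4.31 to 4.75 of the samples without busulfan.

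Vessel genes had lower means in BA10, but 0 of them passed adjustment. All 13 endothelial genes were tested, all had a lower mean, 6 had values that did not overlap and 6 were at an unadjusted p under 0.05, with a median log2 change of -0.55. Over all genes tested, 7.62% did not overlap with BA10 lower and 3.11% were lower at that p. Pecam1, an adhesion protein of vessel walls, was at 25.98, 23.45 and 19.96 FPKM in B0 and at 16.75, 11.47 and 13.81 FPKM in BA10 (log2 change -0.69 ± 0.26, adjusted p = 0.742, limma). Emcn, a mucin of endothelium, was at 25.82, 32.36 and 24.88 FPKM in B0 and at 24.47, 11.72 and 18.55 FPKM in BA10 (log2 change -0.62 ± 0.26), and Kdr, the main receptor of the growth factor VEGF, had a log2 change of -0.42 ± 0.18. BA10 replicate 2, the sample with the highest spermatid values, was the lowest for Pecam1, Emcn and Kdr. Without it the median of the list was -0.30, all 13 members stayed lower and 0 were at an unadjusted p under 0.05. The list's 13 genes summed to 230, 208 and 210 FPKM in B0 and to 184, 118 and 164 FPKM in BA10.

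Of the peritubular myoid and smooth muscle genes 11 of 12 had a lower mean (median -0.43). Des, the muscle filament desmin, was at 24.93, 13.58 and 14.87 FPKM in B0 and at 8.33, 8.89 and 8.88 FPKM in BA10 (log2 change -0.91 ± 0.27, adjusted p = 0.742, limma), and Tpm2, a tropomyosin, had a log2 change of -0.48 ± 0.17. Both sets of values did not overlap, and smooth muscle of vessel walls shares these genes. Acta2, smooth muscle actin, was at 81.64, 37.11 and 66.83 FPKM in B0 and at 32.53, 38.49 and 38.33 FPKM in BA10, which overlapped. Fibroblast and matrix genes had a median of -0.31, with 21 of 23 lower and 0 at an unadjusted p under 0.05. Without B0 replicate 1 their median was -0.03 with 13 of 23 lower, and without BA10 replicate 2 it was -0.13. The myoid median was -0.26 without BA10 replicate 1 or 2, with 11 of 12 lower.

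Sertoli and Leydig cell genes showed no common direction. Of 25 Sertoli genes tested, 10 had a higher and 15 a lower mean (median -0.03), and Sox9, the factor that sets Sertoli identity, was at 13.76, 14.62 and 19.36 FPKM in B0 and at 14.76, 21.09 and 17.13 FPKM in BA10 (log2 change 0.14 ± 0.29). Cst12, a cystatin of Sertoli cells, was at 196.96, 195.52 and 229.19 FPKM in B0 and at 154.31, 121.02 and 115.49 FPKM in BA10 (log2 change -0.67 ± 0.30, adjusted p = 0.742, limma). Ocln, the tight junction protein occludin, had a log2 change of -0.49 ± 0.20. Its highest value, 3.40 FPKM, was in B0 replicate 2, and without that sample its log2 change was -0.33. Epithelia also make occludin, and which cells its RNA came from was not tested. The iron carrier Trf had a log2 change of -0.53 ± 0.20. Cst12, Ocln and Trf were the only Sertoli genes at an unadjusted p under 0.05, so 3 of 25 were lower and 0 higher. Over all genes tested 3.11% were lower and 1.9% higher at that p.

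Of 17 Leydig cell and steroid synthesis genes tested, 12 had a higher mean (median 0.05) and 0 were at an unadjusted p under 0.05. Star, which moves cholesterol into mitochondria for steroid synthesis, was at 236.64, 355.59 and 351.61 FPKM in B0 and at 492.35, 361.39 and 372.94 FPKM in BA10 (log2 change 0.39 ± 0.21, adjusted p = 0.742, limma). These groups did not overlap, but only BA10 replicate 1 stood clearly above B0. Insl3, a Leydig cell hormone, was at 317.59, 361.48 and 839.63 FPKM in B0 and at 1010.73, 353.82 and 495.96 FPKM in BA10, and the steroid enzyme gene Hsd3b1 had a log2 change of 0.04 ± 0.34. Of 20 macrophage genes 16 had a lower mean (median -0.17) with 0 at an unadjusted p under 0.05, among them Lyve1 at 18.97, 21.67 and 26.40 FPKM in B0 and 10.04, 6.0 and 17.40 FPKM in BA10. Aif1, a calcium-binding protein on the same list, lay in the other direction at 72.86, 75.73 and 62.72 FPKM in B0 and 88.41, 140.82 and 72.31 FPKM in BA10. Its highest value was in BA10 replicate 2, the sample with the highest spermatid values, and which cells it came from was not tested. Without BA10 replicate 2 the macrophage median was 0.06 with 5 of 20 members lower, so the list had no direction that held for every sample left out. Of the 18 lymphocyte and granulocyte genes 15 were below 1 FPKM in all 6 samples.

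Among response pathways, interferon-stimulated genes, which cells switch on against viruses, had 17 of 18 tested genes with a lower mean (median -0.31), 7 that did not overlap and 4 at an unadjusted p under 0.05. For all genes tested these shares were 7.62% and 3.11% in the lower direction. Oasl2, an interferon-induced protein of the OAS family, was at 6.57, 8.46 and 10.65 FPKM in B0 and at 4.31, 4.52 and 4.82 FPKM in BA10 (log2 change -0.76 ± 0.21, adjusted p = 0.724, limma). Irf7, a transcription factor of the interferon response, was at 8.95, 4.19 and 7.65 FPKM in B0 and at 4.04, 2.62 and 3.60 FPKM in BA10 (log2 change -0.80 ± 0.30, adjusted p = 0.742, limma). The BA10 values of both lay below all B0 values. Without B0 replicate 1, B0 replicate 3 or BA10 replicate 2 the list had 1 gene at an unadjusted p under 0.05, and without B0 replicate 2 it had 6.

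Inflammatory cytokine and chemokine genes were split, with 10 of 19 higher (median 0.03). Cxcl10, an interferon-induced chemokine, was at 4.48, 3.27 and 12.30 FPKM in B0 and at 4.93, 1.52 and 1.65 FPKM in BA10 (log2 change -0.99 ± 0.46), and Ccl4, a chemokine of macrophages, had a log2 change of 0.43 ± 0.23. The Toll-like receptor and NF-kB pathway had 21 of 29 genes lower (median -0.08) with 0 at an unadjusted p under 0.05. Over all genes tested 55.9% had a lower mean. Without BA10 replicate 2 the pathway had 14 of 29 genes lower (median 0.0). Rela, a subunit of NF-kB, had a log2 change of -0.21 ± 0.10.

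Most genes of the DNA damage and death pathways had small differences. Of 22 p53 target genes 21 had a lower mean (median -0.17), 2 did not overlap and 1, Ddit4l, was at an unadjusted p under 0.05 (log2 change -0.24 ± 0.11). Both counts were near the shares of all genes tested, 7.62% not overlapping with BA10 lower and 3.11% lower at that p. Cdkn1a, the p53 target that halts the cell cycle, had the lowest log2 change of the list and is given after its values were seen, at 198.42, 102.44 and 68.96 FPKM in B0 and at 65.33, 62.33 and 9.05 FPKM in BA10. Bbc3 and Pmaip1, which encode the death proteins PUMA and NOXA, had log2 changes of -0.36 ± 0.19 and -0.44 ± 0.22, and neither passed. Of 24 apoptosis machinery genes 19 had a lower mean (median -0.14), 6 did not overlap, among them the caspase gene Casp9 (log2 change -0.27 ± 0.15), and 0 were at an unadjusted p under 0.05. The same shares of all genes, 7.62% and 3.11%, apply to these counts.

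Stress and metabolic lists lay near or a little below the median of all genes. The median was -0.35 for hypoxia and glycolysis (21 of 24 lower), -0.25 for immediate early genes (17 of 21 lower), -0.15 for endoplasmic reticulum stress (23 of 26 lower), -0.11 for heat shock (13 of 17 lower) and -0.05 for NRF2 targets and antioxidant genes (23 of 35 lower). Without BA10 replicate 2 the medians of the first 3 were -0.16, -0.02 and -0.09, and without BA10 replicate 3 they were -0.51, -0.37 and -0.16. Without B0 replicate 1 the median was -0.08 for endoplasmic reticulum stress and -0.05 for heat shock. Egln3, an oxygen sensor induced by hypoxia, was at 53.42, 30.58 and 24.07 FPKM in B0 and at 12.60, 10.89 and 26.40 FPKM in BA10 (log2 change -1.09 ± 0.46, adjusted p = 0.742, limma), so BA10 replicate 3 lay within the B0 range. The glycolytic enzyme gene Eno1, also given after its values were seen, was at 486.49, 40.86 and 9.42 FPKM in B0 and at 8.83, 10.78 and 7.63 FPKM in BA10, and B0 replicate 1 was far above the rest. Egr1, a factor induced within minutes of stimulation, had a log2 change of -0.70 ± 0.28, and Hmox1, the antioxidant enzyme that breaks down heme, of -0.38 ± 0.24. Cholesterol synthesis and uptake had a median of -0.09, fatty acid synthesis and desaturation of -0.02 and retinoic acid metabolism of -0.07, with 0, 0 and 1 genes at an unadjusted p under 0.05. The last was Rbp4, a retinol carrier also secreted by fat cells, at 20.11, 9.02 and 10.73 FPKM in B0 and 4.65, 4.27 and 12.45 FPKM in BA10.

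DNA replication and mitosis genes had a median of 0.13, with 19 of 27 higher, 5 not overlapping and 4 higher and 1 lower at an unadjusted p under 0.05. Over all genes tested 3.54% did not overlap with BA10 higher, and 1.9% were higher and 3.11% lower at that p. Ttk, a kinase of the spindle checkpoint, was at 4.04, 5.08 and 3.12 FPKM in B0 and at 5.75, 7.55 and 5.76 FPKM in BA10 (log2 change 0.54 ± 0.14, adjusted p = 0.597, limma). Foxm1, a transcription factor of dividing cells, had a log2 change of 0.53 ± 0.20 and Cdc20, which starts anaphase, of 0.37 ± 0.15. The BA10 values of these 3 lay above all B0 values. Rrm2, a subunit of the enzyme that makes deoxynucleotides, was the member that was lower, with a log2 change of -0.52 ± 0.21.

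**Figure D5:**
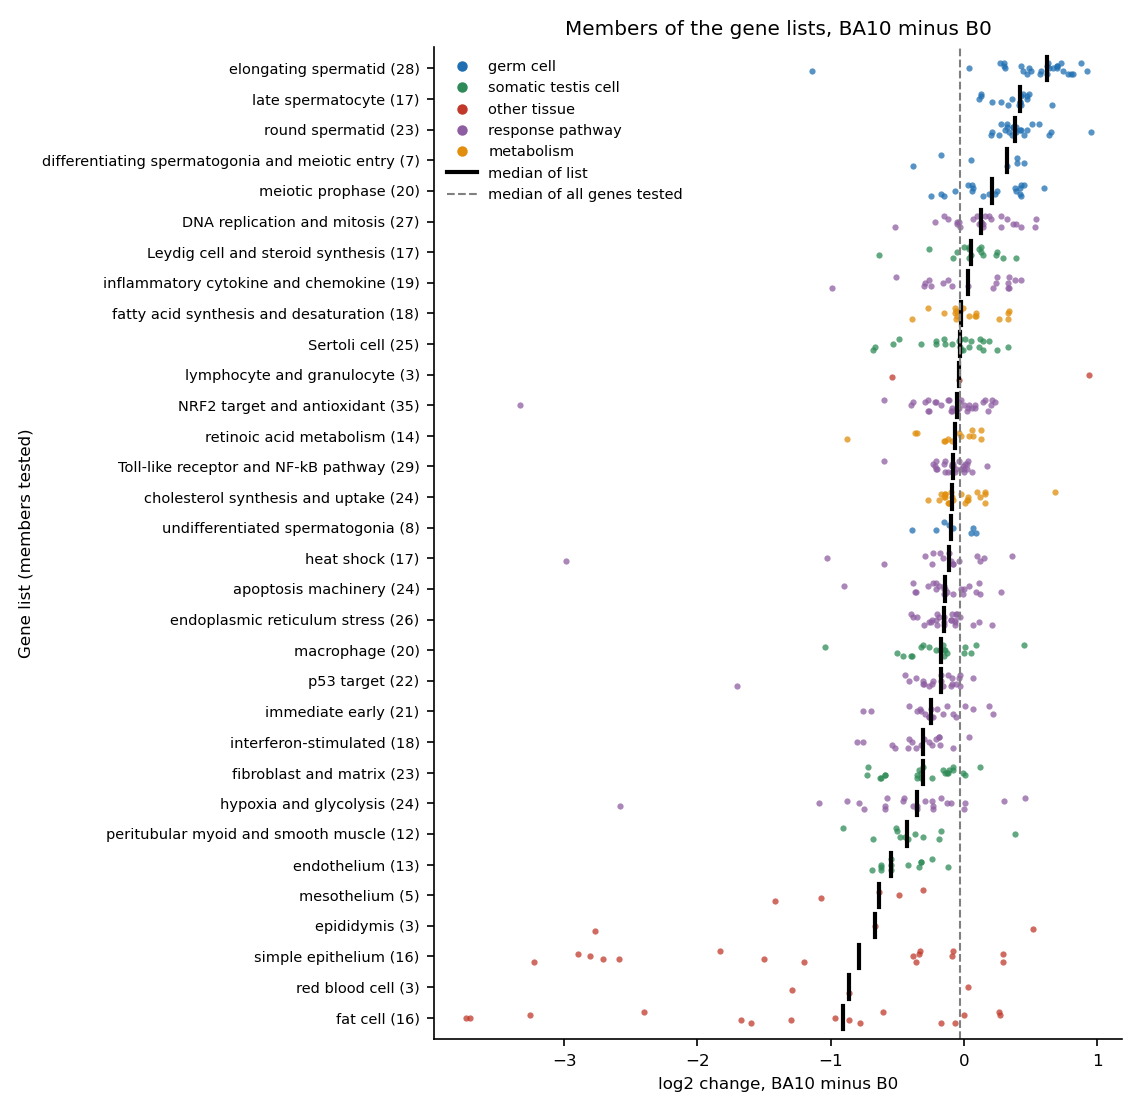
Log2 change (x axis, BA10 minus B0) of each tested member of the 32 lists with at least 3 tested members (number in brackets), colored by kind of list, with the median of each list as a black bar and that of all genes tested as a dashed line. List medians run from 0.62 for elongating spermatid genes to -0.91 for fat cell genes, and the medians of the Sertoli cell, Leydig cell and metabolic lists lie within 0.10 of 0.

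The largest differences among genes at an unadjusted p under 0.05 with non-overlapping values are given next, and those not discussed above did not pass adjustment. The 8 genes with the largest higher means in BA10 were Samt1b, Samt1, Cstl1, Oxct2b, Tex44, Oxct2a, Ubqlnl and Cst13, with log2 changes from 1.94 to 0.95. Oxct2a and Oxct2b encode the ketone-using enzyme of spermatids. They are near-identical, so reads could be split between them, and their sum was 11.04, 16.40 and 16.95 FPKM in B0 and 29.01, 47.54 and 20.44 FPKM in BA10. Samt1 and Samt1b belong to an X-linked family of near-identical copies, and the sum over its 4 members was 9.63, 14.60 and 10.18 FPKM in B0 and 15.54, 26.23 and 10.31 FPKM in BA10, so the summed groups overlapped. Ubqlnl, a ubiquilin-like gene, was at 10.99, 18.27 and 15.44 FPKM in B0 and at 26.27, 51.67 and 18.86 FPKM in BA10. BA10 replicate 2 was the highest sample for each of these 8 genes.

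The 8 genes with the largest lower means in BA10 were Hmga1b, Car3, Cfd, Pgd, Retn, Krt7, Hspa1a and Krt19, with log2 changes from -4.05 to -2.90. Hmga1b and Hspa1a were below 1 FPKM in all BA10 samples, so they entered the test through B0 alone and could hardly be other than lower. Hmga1b, Pgd and Hspa1a had wide spreads. Pgd, an enzyme of the pentose phosphate pathway, was at 137.05, 27.50 and 9.82 FPKM in B0 and at 2.00, 3.15 and 2.35 FPKM in BA10, with a log2 change of -3.33 ± 1.36 (adjusted p = 0.742, limma). Hspa1a, the heat-induced chaperone HSP70, shares nearly all of its sequence with Hspa1b, and their sum was 68.57, 14.06 and 6.29 FPKM in B0 and 4.58, 3.29 and 8.56 FPKM in BA10, which overlapped. Hmga1b is near-identical to Hmga1, and their sum was 248.5, 100.3 and 63.34 FPKM in B0 and 62.33, 49.25 and 60.68 FPKM in BA10. B0 replicate 1 was the highest B0 sample for Pgd and for both sums.

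Values of the same genes in the other groups are given side by side. The comparison of BA50 with B0 shares the B0 samples with BA10 against B0, and so does B0 against A0. For Krt7 the highest value outside B0 was 1.18 FPKM, and the A0 samples were at 1.11, 0.44 and 0.14 FPKM. Krt18 was at 9.61, 3.61 and 2.98 FPKM in A0 and at 4.14, 3.50 and 3.38 FPKM in BA50. Car3 was at 0.53, 0.24 and 0.21 FPKM in A0 and at 0.08, 0.49 and 0.63 FPKM in BA50. Thus the BA10 values of these genes lay at the level of the groups without busulfan and of BA50, and the 3 B0 samples were the ones that stood apart. The median of the fat cell list was 1.36 for B0 minus A0, -0.91 for BA10 minus B0 and -0.97 for BA50 minus B0, and that of the simple epithelium list was 1.06, -0.79 and -0.89.

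Spermatid genes had another order. For the elongating spermatid list the median log2 change was -0.12 for B0 minus A0, 0.62 for BA10 minus B0 and 0.95 for BA50 minus B0. Prm1 was at 1204.60, 679.41 and 905.02 FPKM in A0 and at 1381.88, 3056.72 and 1836.90 FPKM in BA50, so BA10 overlapped with both groups. Meiotic prophase genes had medians of -1.25 for B0 minus A0, 0.21 for BA10 minus B0 and 0.23 for BA50 minus B0. All BA10 samples stayed below the A0 samples for the mean level of that list, at 3.10 to 3.47 against 4.31 to 4.55 on the log2(FPKM + 1) scale.

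The change with 10 μg/mL AOS was also compared between testes with and without busulfan. For A10 minus A0, which shares no sample with BA10 and B0, the median log2 change was 0.25 for elongating spermatid genes, 0.37 for round spermatid genes, -0.21 for fat cell genes, -0.01 for simple epithelium genes and -0.29 for interferon-stimulated genes. The difference of the 2 changes, tested in the same limma fit, was called in 0 of 14705 genes (0.0%), with a smallest adjusted p of 0.593 and 578 genes (3.93%) at an unadjusted p under 0.05. The smallest p belonged to Krt7, whose change was -3.23 after busulfan and -0.10 without it, a difference of -3.13 ± 0.54 (SE). For Prm1 the changes were 0.80 and 0.33, a difference of 0.46 ± 0.46 (adjusted p = 0.918, limma), so the interval of the difference includes both 0 and a difference as large as the change itself. A10 replicate 3 had lower correlations with its group (0.930 to 0.943) than any B0 or BA10 sample had with its own, and without it 0 genes were called for the difference and 3 for BA10 against B0.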

How the data were processed

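Poly(A) RNA of 18 cultured testis samples was sequenced, and the authors deposited 1 table of FPKM values per gene for all samples, rounded to 2 decimals. The submitters' processing notes name GRCm38.p5, HISAT, Bowtie2 and RSEM, while the study's methods describe SOAPaligner on reference genes. Read counts were not used here, so count models, including the DEGseq test of the methods, could not be run and the depth behind each value is unknown. Samples were grouped by their labels.

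Values were tested as log2(FPKM + 1) with limma 3.58.1 in R 4.3.3, 1 coefficient per group over 18 samples (12 residual degrees of freedom), with an intensity trend and Benjamini-Hochberg adjustment over the 14705 genes with at least 1 FPKM in 3 or more of the 6 samples. Fold changes on this scale understate the change of low genes. Errors in the text after a log2 change are standard errors of this fit. The fit was tested on simulated data. Counts over lists used pandas 2.3.3 and NumPy 2.4.6 under Python 3.11.15, with matplotlib 3.10.9 for the plots.

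The groups compared and the 33 gene lists (685 genes, 682 in the table, 577 tested) were chosen with earlier results of these data known, so lists were only counted. Named genes were those called, the 8 with the largest difference in each direction among genes with an unadjusted p under 0.05, groups that did not overlap, a mean of at least 5 FPKM in the higher group and an established symbol, up to 4 members of each list with the smallest p, and the marker genes of the study. Promoter windows and positions came from RefSeq tables of GRCm38.p6. Of the table's genes, 20656 were matched to a symbol. Alternatives covered the filter, pseudocount, normalization, sample weights, replicate block, the 6 samples alone and leaving out each sample.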

Additional observations from a re-analysis of the deposited data

How the results depend on the processing

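Genes called higher in BA10 numbered 0 in every fit that was run. Of the 4 genes called lower, 0 were called with the 6 samples alone, 0 with the 6 samples alone and the replicate block, 0 at the limits of the methods and 2 with a pseudocount of 0.1. There were 10 without a filter, 11 after quantile normalization and 14 with sample weights, which stopped before they converged, and each of these sets held the same 4. Leaving out 1 sample gave 0 to 16. A ratio of means of at least 2, which is no test, was met by 365 lower and 144 higher genes. Leaving out A10 replicate 3, an alternative chosen after seeing the data, gave 3. At an unadjusted p under 0.05, the 279 higher genes became 816 with the 6 samples alone and the replicate block, 180 at a mean of at least 5 FPKM and 71 to 638 on leaving out a sample. The 457 lower genes became 863 without a filter, 275 at a mean of at least 5 FPKM and 167 to 617 on leaving out a sample. For the difference of the changes with and without busulfan, 11 genes were called with sample weights and 0 to 1 on leaving out a sample, against 0. The cause was not tested.

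The replicate numbers did not pair the samples: deviations from the group means correlated at -0.06, 0.36 and 0.01 for equal numbers, and B0 replicate 3 correlated best with BA10 replicate 1 (0.41). With the replicate block 3 genes were called lower, 0 higher and 0 for the difference, 269 were higher and 494 lower at an unadjusted p under 0.05, and Car3 had an adjusted p of 0.0725 (limma).

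Of 142 named genes 133 kept their direction in every setting. Sample weights gave 0.02 for Mylpf, 0.09 for Ptprc and -0.09 for Dazl. Leaving out a sample turned 8 genes, with ranges of -0.01 to 0.40 for Scarb1, -0.10 to 0.14 for Alas2, -0.15 to 0.14 for Ptprc, -0.01 to 0.22 for Soat1, -0.48 to 0.03 for Insig1, -0.15 to 0.43 for Hsd3b1, -0.13 to 0.73 for Insl3 and -0.16 to 0.26 for Dazl. Of the list medians, those of endothelium (-0.30) and NRF2 targets (-0.14) moved by more than the spread between replicates, both without BA10 replicate 2. On leaving out a sample 8 list medians changed sign, with ranges of -0.33 to 0.06 for macrophage, -0.12 to 0.07 for Sertoli cell, -0.12 to 0.20 for Leydig cell, -0.15 to 0.14 for lymphocyte and granulocyte, -0.11 to 0.19 for inflammatory, -0.28 to 0.11 for cholesterol, -0.09 to 0.15 for fatty acid and -0.19 to 0.05 for retinoic acid genes. The depth is unknown, and the precision is limited by 3 samples a group.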

Other observations

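A few genes varied widely among samples of the same group. Hmga1b, a copy of the chromatin protein gene Hmga1, was at 175.15, 24.06 and 2.27 FPKM in B0 and at 0.26, 0.67 and 0.50 FPKM in BA10, but also at 9.32, 137.44 and 31.42 FPKM in A0, at 4.37, 2.27 and 148.36 FPKM in A10 and at 179.75, 5.55 and 0.94 FPKM in BA50. Pgd, an enzyme of the pentose phosphate pathway, was highest in the same sample of B0, A0, A10 and BA50, at 137.05 FPKM in B0 replicate 1, 107.98 FPKM in A0 replicate 2, 51.03 FPKM in A10 replicate 3 and 164.33 FPKM in BA50 replicate 1. In BA10 it was at 2.00, 3.15 and 2.35 FPKM. Hspa1a, the heat-induced chaperone, was at 35.98 FPKM in B0 replicate 1, 17.97 FPKM in A0 replicate 2, 57.33 FPKM in A10 replicate 3 and 11.40 FPKM in BA50 replicate 1. No sample of BA10 or A50 had such a value for these genes, and they were chosen for this description after their values were seen.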
